A study of Mus musculus with 12 samples.

Results

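The class 3 semaphorins, their neuropilin receptors and plexin D1 were followed in the outer tissue layers of the embryonic mouse heart. The set was chosen by gene symbol and held 10 genes of the 17637 in the deposited table: the ligands Sema3a, Sema3b, Sema3c, Sema3d, Sema3e, Sema3f and Sema3g, the co-receptors Nrp1 and Nrp2, and the receptor Plxnd1. All 10 were present, and all 10 passed the filter on low values. The hearts came from wild-type embryos of the outbred CD1 strain at stage E16.5, and the labels name no treatment, transgene or deletion in either group. One group, called artery here, was the mesothelium with the tissue just under it, peeled from the base of the great arteries. The other, called ventricle, was the epicardium with the tissue just under it, peeled from the ventricles. Each library was a pool of 1 litter, and 6 litters each gave 1 artery and 1 ventricle library.

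Class 3 semaphorins are secreted proteins that steer growing axons, migrating cells and vessel sprouts, often by repelling them. Most bind a neuropilin on the receiving cell, and the neuropilin hands the signal to a plexin, whose cytoplasmic part acts on small GTPases and the cytoskeleton. Sema3e is the exception that binds Plxnd1 directly. In mouse, Sema3c signalling through neuropilins and plexins guides neural crest cells into the cardiac outflow tract, and loss of Plxnd1 disturbs the division of that tract. Neuropilins also serve as co-receptors for vascular endothelial growth factors, which places both receptors at the junction of nerve and vessel guidance.

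Values are a normalized signal on the scale of CPM (reads of a gene relative to the library size). Artery 1 and artery 6 were the shallow libraries, with 6.77 and 7.97 M reads, and the others held 16.45 to 22.11 M. Artery 4 lay nearest to the ventricle libraries on the first principal component (47.3% of the variance), and artery 1 stood apart on the second (23.8%), so the values of the called members and of the calls that litters 1 or 4 change are also given without both. All 12 mesothelial and epicardial markers were detected in both groups, and 12 of 12 were lower in artery. Their summed value ran from 1676 to 3491 in artery, where artery 4 was the highest, and from 2808 to 5448 in ventricle. Smooth muscle markers were higher in artery for 7 of 8 genes (summed value 2133 to 3966, against 862 to 1330), and heart muscle markers were lower for 8 of 10 (3555 to 13430, against 10996 to 28613). These sums differ between the groups that every test here compares, and their part in the results was not tested. In such bulk samples, fewer cells of a type and less RNA per cell cannot be told apart.

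The start regions of 4 genes are shown because the results turn in part on the ratio of Sema3d to Sema3c and of Nrp1 to Nrp2 within a library. Each runs from 250 bases before to 50 bases after the start of the gene in RefSeq (build GRCm38.p6), read 5′ to 3′ along the gene's strand. Capitals mark matches, on either strand, to the GC box GGGCGG, the letters CCAAT, the letters TGACG or the letters GGAATG. Also searched were CANNTG, which is not marked, and TATAAA and AGATAA, which matched in none of the 8 members with an entry. Sema3d is at chr5:12382916-12383215 (plus strand), Sema3c at chr5:17574566-17574865 (plus strand), Nrp1 at chr8:128358823-128359122 (plus strand) and Nrp2 at chr1:62703067-62703366 (plus strand).
Sema3d: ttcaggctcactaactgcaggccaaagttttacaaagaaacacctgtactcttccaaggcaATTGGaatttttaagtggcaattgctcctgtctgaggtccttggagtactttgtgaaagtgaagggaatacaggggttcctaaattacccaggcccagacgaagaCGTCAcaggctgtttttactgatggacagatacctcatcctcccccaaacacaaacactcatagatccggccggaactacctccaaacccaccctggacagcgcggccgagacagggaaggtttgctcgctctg
Sema3c: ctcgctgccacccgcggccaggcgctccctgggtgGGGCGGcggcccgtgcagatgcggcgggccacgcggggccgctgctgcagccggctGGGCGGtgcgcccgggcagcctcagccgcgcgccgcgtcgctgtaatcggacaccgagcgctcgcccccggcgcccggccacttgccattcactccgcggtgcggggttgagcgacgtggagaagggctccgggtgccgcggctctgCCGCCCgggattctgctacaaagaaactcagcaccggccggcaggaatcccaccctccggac
Nrp1: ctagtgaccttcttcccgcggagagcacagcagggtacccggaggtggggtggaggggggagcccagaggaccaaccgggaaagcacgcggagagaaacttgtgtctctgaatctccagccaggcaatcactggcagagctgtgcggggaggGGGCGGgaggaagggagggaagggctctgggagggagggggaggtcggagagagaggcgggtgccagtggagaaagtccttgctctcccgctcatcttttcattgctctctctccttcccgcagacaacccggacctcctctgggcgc
Nrp2: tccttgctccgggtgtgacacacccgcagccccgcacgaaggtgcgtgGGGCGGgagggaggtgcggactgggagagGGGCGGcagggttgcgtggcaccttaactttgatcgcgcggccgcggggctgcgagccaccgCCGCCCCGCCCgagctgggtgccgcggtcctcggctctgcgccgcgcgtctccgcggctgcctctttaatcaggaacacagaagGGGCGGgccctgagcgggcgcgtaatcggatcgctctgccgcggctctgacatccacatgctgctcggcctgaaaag

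The Sema3d window held 8 CpG dinucleotides, 49.7% G and C, 1 CCAAT, 1 TGACG and no GC box, while the Sema3c window held 42 CpG, 75.7% G and C and 3 GC boxes. The Nrp1 window had 14 CpG, 64.0% G and C and 1 GC box, and the Nrp2 window 37 CpG, 70.7% G and C and 5 GC boxes. Among the other members with an entry, the CpG number was 2 for Sema3a, 11 for Sema3e, 8 for Sema3g and 23 for Plxnd1. The Sema3a window (5:13396534-13396833) lies well inside the gene's GENCODE span (5:13125414-13602565), so its count does not describe the 5′ end of that span. The RefSeq and GENCODE starts differ for other genes as well. The Sema3d window ends at 5:12383215, before the GENCODE start at 5:12383385. The Sema3c and Nrp1 windows begin inside the gene, after the GENCODE starts at 5:17574281 and 8:128358604. Of all 32851 start regions in the table, 35.7% held a GC box, 37.4% CCAAT, 20.8% TGACG, 14.7% GGAATG, 13.6% TATAAA, 11.2% AGATAA and 72.3% CANNTG, with a median of 7 CpG and 52.7% G and C. A match is a run of letters and not a shown binding site.

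Of the 10 genes, 6 differed between artery and ventricle: Sema3f, Sema3g and Nrp1 were higher in artery, and Sema3d, Sema3e and Plxnd1 were lower. A gene was called at an adjusted p under 0.05 in limma with litter as a block, over 14779 tested genes. By that rule 24.5% of all tested genes were called, 11.9% higher and 12.6% lower in artery. The members' median log2 difference was -0.01, beside -0.04 over all tested genes. Sema3d, Sema3f and Sema3g had the same direction in all 6 litters, as 27.1% of tested genes did. For Sema3f alone among the 10, artery and ventricle values did not overlap, which held for 11.9% of tested genes. Log2 differences are artery minus ventricle and were computed on log2(value + 1), so that changes of genes with low values come out too small. Among the 3 artery and 4 ventricle libraries with lane number 2, fitted without a block, all 10 genes kept their sign and 0 passed in limma, while 3 did so at an unadjusted p under 0.05. The differences there were -0.49 for Sema3d, -0.40 for Sema3e, 0.40 for Sema3f, 0.77 for Sema3g, 0.42 for Nrp1 and -0.46 for Plxnd1.

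**Figure D1:**
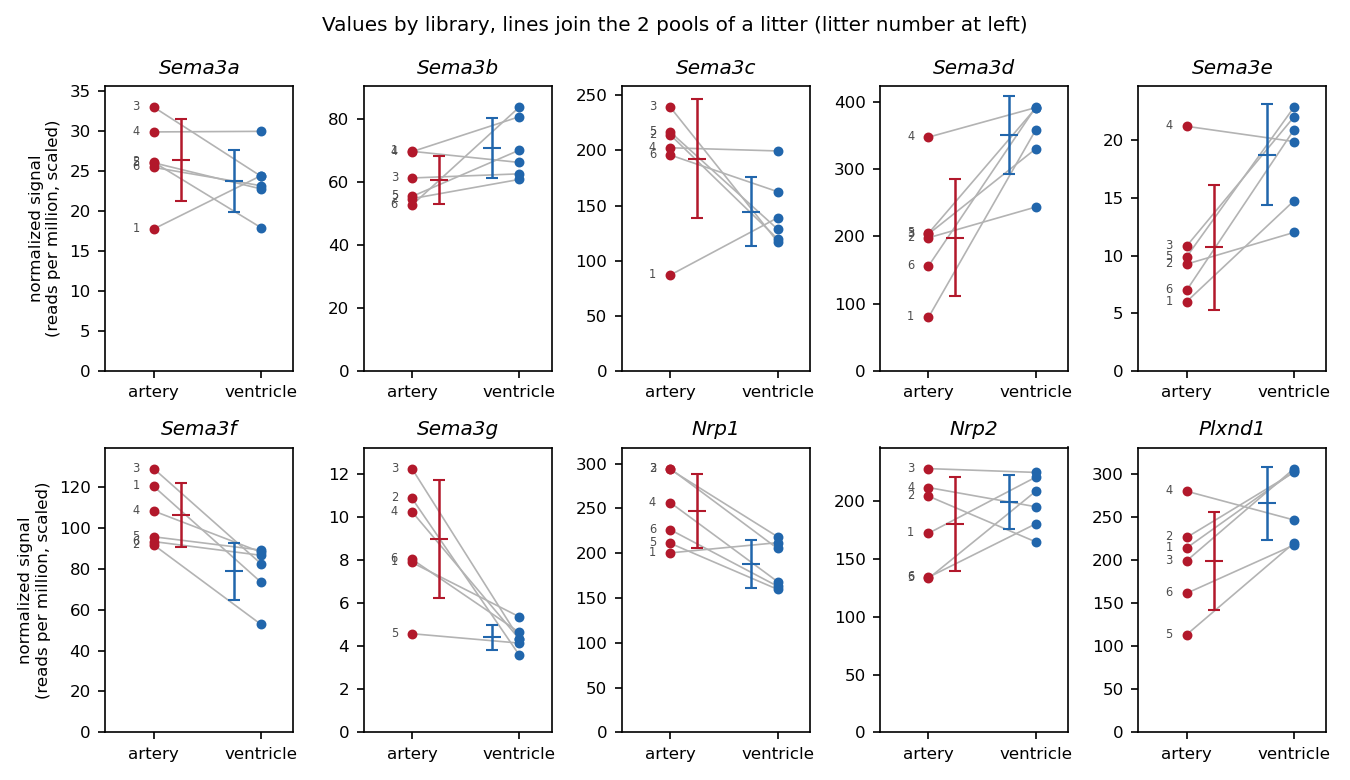
Normalized signal of each of the 10 genes (vertical axis, from 0) in artery (red) and ventricle (blue) libraries, with lines joining the 2 pools of a litter, litter numbers at the left, and bars for mean and SD (n = 6 each). Sema3d and Sema3e fall below the ventricle values in all artery libraries but artery 4, and Sema3f lies above every ventricle value.

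Sema3d, a secreted ligand that in mouse takes part in patterning the veins that enter the heart, was the ligand with the largest signal in ventricle. The gene lies at 5:12383385-12588948 (GRCm38, plus strand). In artery its lowest value was 79.5, its median 201 and its highest 348, and in ventricle these were 244, 375 and 392. Artery 4 was the high artery library and overlapped with ventricle, while the other 5 artery libraries, at 79.5 to 205, lay below all ventricle libraries. The means were 198 ± 87.5 and 351 ± 58.2 (SD, n = 6 each), 1.77-fold higher in ventricle, with a log2 difference of -0.93 ± 0.23 (SE) and an adjusted p of 0.0194. Artery 4 also had the highest sum of mesothelial and epicardial markers in artery, whereas artery 1, the lowest for Sema3d, had the next highest sum (2212). Endothelial, lymphatic, macrophage and glial marker sums were highest in artery 4 as well, and the smooth muscle sum was lowest there. Without litters 1 and 4 the difference was -0.81 (adjusted p = 0.00321). The call was lost without litter 5 (-0.93, adjusted p = 0.0564) or litter 6 (-0.85, adjusted p = 0.0632), and over the 4 litters whose pools carry the same lane number (which may belong to different flow cells) the difference was -0.52 (adjusted p = 0.0259).

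Sema3e, the ligand that binds Plxnd1 without a neuropilin, was low in both groups and lower in artery. It lies on the same chromosome, at 5:14025276-14256689 (plus strand). Artery values had a lowest of 6.02, a median of 9.59 and a highest of 21.2, and ventricle values 12.02, 20.4 and 22.9. Artery 4 again was the high artery library, at 21.2, while the other 5 were at 6.02 to 10.8, below every ventricle library. The means were 10.7 ± 5.46 and 18.8 ± 4.37 (SD, n = 6 each), with a log2 difference of -0.83 ± 0.20 and an adjusted p of 0.0153, and 5 of 6 litters were lower in artery. Without litters 1 and 4 the difference was -0.97 (adjusted p = 0.00195). It did not pass without litter 5 (-0.77, adjusted p = 0.0568), without litter 6 (-0.70, adjusted p = 0.05001) or in the 4 litters with equal lane numbers (-0.59, adjusted p = 0.0608).

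Sema3f, which signals mainly through Nrp2 and restrains vessel sprouting, was higher in artery. The gene is at 9:107681500-107710475 (minus strand). Artery values were 91.6 at the lowest, 102 in the median and 129 at the highest, against 52.7, 84.4 and 89.0 in ventricle. Every artery library was thus above every ventricle library, by a narrow gap between artery 2 (91.6) and ventricle 5 (89.0). The means of 106 ± 15.5 and 78.7 ± 13.9 (SD, n = 6 each) gave a log2 difference of 0.44 ± 0.12 and an adjusted p of 0.0244. The difference ranged over litters from 0.10 to 0.78. The call was lost without litter 2 (0.37, adjusted p = 0.0822), without litter 3 (0.40, adjusted p = 0.0879) and, with no block, without artery 1 and artery 4 (0.38, adjusted p = 0.0648). It was kept in the blocked fit without litters 1 and 4 (0.41, adjusted p = 0.0341).

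Sema3g, a ligand known from the arterial endothelium of mouse embryos, had the largest rise in artery of the 10 genes. It is at 14:31217860-31230352 (plus strand). Its artery values were 4.59 at the lowest, 9.16 in the median and 12.3 at the highest, and its ventricle values 3.597, 4.35 and 5.38. Artery 5 was the low artery library and fell among the ventricle values, while the other 5 artery libraries, at 7.90 to 12.3, were above all of them. The means were 8.996 ± 2.74 and 4.41 ± 0.588 (SD, n = 6 each), 2.04-fold higher in artery, with a log2 difference of 0.84 ± 0.19 and an adjusted p of 0.0112. The gene rested on 54 to 201 reads per library. Its call was kept in each omission of a litter and without litters 1 and 4 (0.87, adjusted p = 0.0114).

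Sema3a, Sema3b and Sema3c did not pass the test. Sema3c, the ligand of outflow tract neural crest, lies at 5:17574281-17730268 (plus strand). Its artery values were 86.9 at the lowest, 208 in the median and 239 at the highest, against 117, 134 and 200 in ventricle. Artery 1 was the low one, below all ventricle libraries, and the other 5 artery libraries were at 196 to 239. With means of 193 ± 53.9 and 144 ± 31.6 (SD, n = 6 each) the log2 difference was 0.37 ± 0.20, with an adjusted p of 0.227 and a 95% interval of -0.09 to 0.83, and 5 of 6 litters were higher in artery. The difference fell to 0.24 (adjusted p = 0.490) without litter 3 and to 0.28 (adjusted p = 0.442) without litter 2. Without litter 1 it passed, at 0.58 (adjusted p = 0.0162), as it did without litters 1 and 4 (0.72, adjusted p = 0.00164) and in the 4 litters with equal lane numbers (0.66, adjusted p = 0.0187).

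Sema3a, the first class 3 semaphorin described as an axon repellent, which also patterns the sympathetic nerves of the mouse heart, is at 5:13125414-13602565 (plus strand). It ran from 17.8 over a median of 26.1 to 33.0 in artery and from 17.9 over 23.8 to 30.0 in ventricle, so the groups overlapped over nearly their whole range. The difference was 0.14 ± 0.13 (adjusted p = 0.482, 95% interval -0.16 to 0.43). It was 0.06 without litter 2 (adjusted p = 0.802), 0.08 without litter 3 (adjusted p = 0.762) and 0.25 without litter 1 (adjusted p = 0.0803), and without litters 1 and 4 it passed, at 0.31 (adjusted p = 0.0372). Sema3b, next to Sema3f on chromosome 9 (9:107597674-107609229, minus strand), ran from 52.6 over 58.3 to 69.7 in artery and from 60.8 over 68.1 to 83.7 in ventricle. Its groups overlapped, 5 of 6 litters were lower in artery, and the difference was -0.22 ± 0.10 (adjusted p = 0.167, 95% interval -0.46 to 0.02). Omission of 1 litter gave -0.28 (without litter 1) to -0.13 (without litter 6), and the call was absent in each. The blocked fit without litters 1 and 4 gave -0.29 (adjusted p = 0.0612), while with no block and without artery 1 and artery 4 it passed, at -0.32 (adjusted p = 0.0227).

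Several members are chromosomal neighbours. Sema3d, Sema3a, Sema3e and Sema3c lie within 5.35 Mb of chromosome 5, and of them Sema3d and Sema3e were lower in artery while Sema3a and Sema3c did not pass. In the same span 4 other genes were tested, of which 2 were higher and 1 lower. On chromosome 9, Sema3b and Sema3f share a span of 0.113 Mb, where Slc38a3 and Gnai2 were also tested and neither passed.

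The co-receptor Nrp1, which binds Sema3a and, for vessel growth, Vegfa, was higher in artery. The gene is at 8:128358604-128503363 (plus strand), and 80 of its exonic bases (0.818%) are shared with Mir1903 on the same strand. Artery values were 200 at the lowest, 241 in the median and 294 at the highest, against 160, 187 and 218 in ventricle. Artery 1 (200) and artery 5 (211) fell within the ventricle range, and the other 4 artery libraries lay above it. The means of 247 ± 41.0 and 188 ± 26.8 (SD, n = 6 each) gave a log2 difference of 0.39 ± 0.11 and an adjusted p of 0.0255, with 5 of 6 litters higher in artery and litter 1 at -0.08. The call was lost without litter 2 (0.38, adjusted p = 0.0739), 3 (0.36, adjusted p = 0.0939), 4 (0.35, adjusted p = 0.0586), 5 (0.39, adjusted p = 0.0750) or 6 (0.37, adjusted p = 0.0654). It was kept, at 0.45 (adjusted p = 0.00266), without litters 1 and 4.

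Nrp2, the partner of Sema3f and, in lymphatic endothelium, of Vegfc, did not pass. It is at 1:62703285-62818695 (plus strand). Artery values ran from 133 over 188 to 228, and ventricle values from 165 over 202 to 225. Artery 5 and artery 6 were low and the rest of artery lay within or just above the ventricle range. The difference was -0.16 ± 0.13 (adjusted p = 0.411, 95% interval -0.46 to 0.14), with 3 litters in each direction. Omission of 1 litter gave -0.26 (without litter 2) to -0.07 (without litter 5), and it passed in none of them.

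Plxnd1, the receptor of Sema3e and a partner of neuropilins in endothelium, was lower in artery. The gene lies at 6:115954811-115995005 (minus strand). Artery values were 113 at the lowest, 207 in the median and 280 at the highest, against 217, 274 and 306 in ventricle. Artery 5 was the low library, and artery 4, the high one, stood above the values of ventricle 4, 5 and 6, so the groups overlapped. The means were 199 ± 56.9 and 266 ± 42.7 (SD, n = 6 each), with a log2 difference of -0.45 ± 0.13, an adjusted p of 0.0372 and 5 of 6 litters lower in artery. With no litter block the adjusted p was 0.0973. The call was also lost without litter 2 (-0.46, adjusted p = 0.0868), 3 (-0.42, adjusted p = 0.116), 5 (-0.35, adjusted p = 0.120) or 6 (-0.46, adjusted p = 0.0803) and in the 4 litters with equal lane numbers (-0.45, adjusted p = 0.0836), and it was kept without litters 1 and 4 (-0.60, adjusted p = 0.00233).

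The endothelial marker sum stood lowest and highest in the same artery libraries as Plxnd1. It was 750 in artery 5 and 1219 in artery 4, with an artery median of 1076, and 1055 to 1309 in ventricle. Of 8 endothelial markers, Kdr and Esam were lower in artery and the other 6 did not pass. The share called was 25%, near the 24.5% of all tested genes. Of the 6 not past, Pecam1 (0.14), Tie1 (0.15) and Emcn (0.13) had positive log2 differences. Those of Cdh5 (-0.37), Tek (-0.33) and Egfl7 (-0.04) were negative. Lymphatic markers summed to 372 to 646 in artery and 498 to 706 in ventricle, with Prox1 and Pdpn lower among 4 (50% called). Their artery sum was also lowest in artery 5 and highest in artery 4. The same held for the summed vascular endothelial growth factors and receptors described below (415 and 652), which share Kdr or Flt4 with these lists. The part of these cell types in the Plxnd1 difference was not tested.

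**Figure D2:**
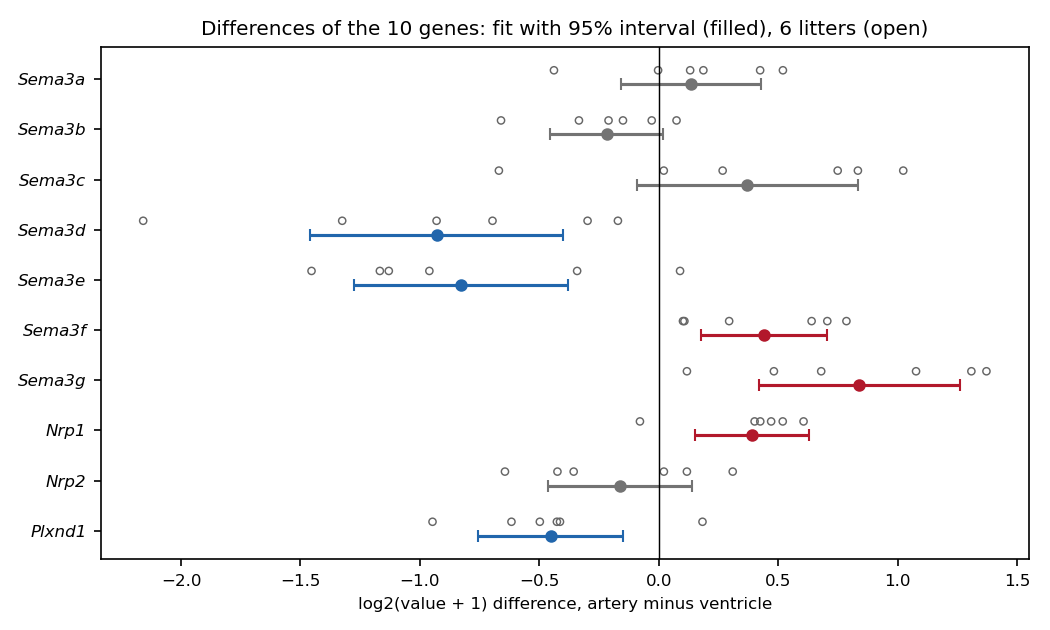
Log2(value + 1) difference, artery minus ventricle (horizontal axis), for the 10 genes: filled points and bars give the limma estimate with its 95% interval (red higher, blue lower, grey not past the test), and open points the 6 litters. The litters of Sema3d spread from -2.16 to -0.17, all below 0, and those of Sema3c from -0.67 to 1.02.

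Levels of different genes were compared per kilobase of transcript, using the mean length of the basic protein-coding transcripts. In artery, Nrp1 led at 68.7 ± 11.4 signal per kilobase (SD, n = 6), followed by Sema3d (41.7 ± 18.4), Sema3f (36.8 ± 5.38), Sema3c (35.1 ± 9.81), Nrp2 (29.4 ± 6.61), Plxnd1 (28.8 ± 8.24) and Sema3b (19.6 ± 2.47). From Nrp1 to Sema3b, each gene's range overlapped with that of the next in this order. Sema3a followed at 5.27 ± 1.03, overlapping with neither neighbour, and Sema3g (1.98 ± 0.602) and Sema3e (1.56 ± 0.796) overlapped at the bottom. In ventricle Sema3d led at 73.8 ± 12.2, and its range overlapped with that of Nrp1 at 52.2 ± 7.45. Plxnd1 (38.5 ± 6.18), Nrp2 (32.4 ± 3.83), Sema3f (27.2 ± 4.82), Sema3c (26.3 ± 5.75) and Sema3b (22.9 ± 3.09) followed. The ranges of Nrp1 and Plxnd1 did not overlap, and from Plxnd1 to Sema3b each range overlapped with the next. Below them Sema3a (4.75 ± 0.773), Sema3e (2.73 ± 0.636) and Sema3g (0.972 ± 0.130) did not overlap with one another, with Sema3e above Sema3g, whereas in artery their means had the reverse order. The order rests on the length used: with all exons of a gene merged, Plxnd1 (27.25 per kilobase), Sema3c (26.98), Nrp1 (25.2) and Sema3d (23.1) came first in artery, and Sema3d (40.9) and Plxnd1 (36.4) in ventricle. At the low end, that length put Sema3g (1.98) ahead of Sema3a (1.90) and Sema3e (1.15) in artery, and Sema3e (2.02) ahead of Sema3a (1.715) and Sema3g (0.972) in ventricle.

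Sema3d made up a smaller share of the ligand signal in artery than in ventricle, and Sema3f a larger one. Sema3d held 28.3% ± 7.81 of the summed class 3 signal per kilobase in artery (SD, n = 6) and 46.4% ± 2.07 in ventricle, and its ranges of 16.2 to 40.3% and 43.7 to 48.9% did not overlap. Sema3f held 26.8% ± 7.11 and 17.1% ± 1.37, again without overlap (20.7 to 40.4% against 15.6 to 19.2%). Sema3c held 24.5% ± 5.41 and 16.6% ± 2.26, where artery 1 (15.4%) fell among the ventricle libraries. Sema3b stayed at 14.3% ± 3.78 and 14.5% ± 1.29, with artery 1 high at 22.0%. Sema3a (3.72% against 3.00%), Sema3g (1.41% against 0.620%) and Sema3e (1.06% against 1.72%) made up the small remainder. The sum of the 7 ligands was 142 ± 27.3 per kilobase in artery and 159 ± 24.4 in ventricle, higher in artery in 2 litters and lower in 4. Shares within a sum depend on each other and are given as a description. With merged exons Sema3c became the leading ligand of artery at 30.3%, ahead of Sema3d (25.2%) and Sema3f (24.0%), while Sema3d still led in ventricle at 42.6%. The same change took Sema3a to 2.16% in artery and 1.797% in ventricle and Sema3g to 2.27% and 1.03%, which put Sema3g above Sema3a in artery, and Sema3e (2.11%) above Sema3a in ventricle.

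**Figure D3:**
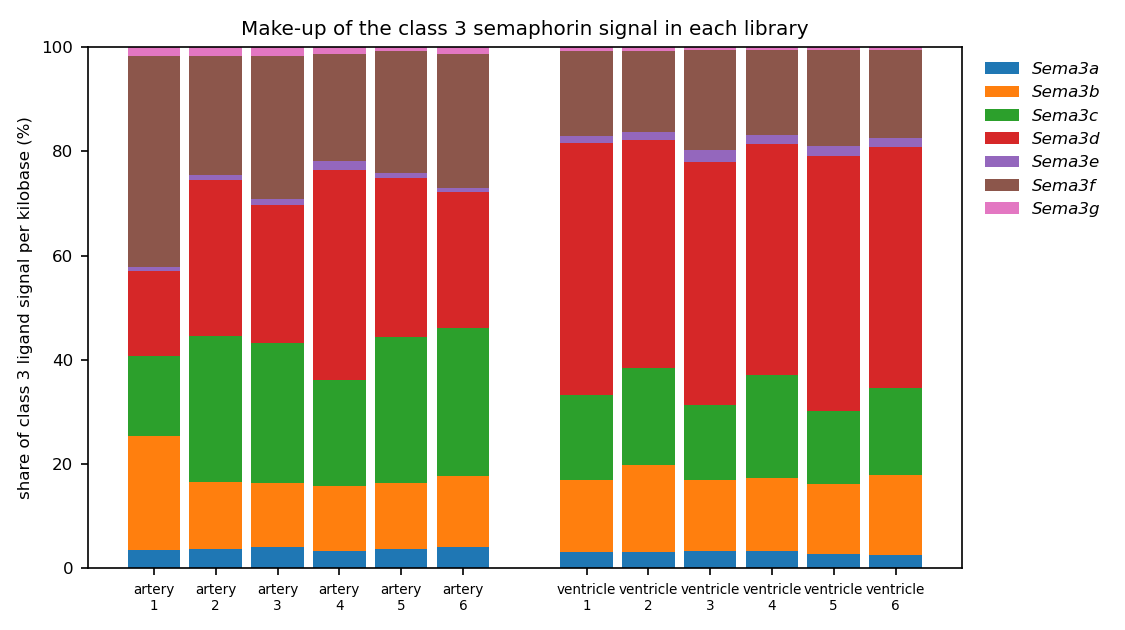
Share of each class 3 semaphorin in the summed signal per kilobase (vertical axis, percent) in each of the 12 libraries. Sema3d (red) holds 43.7 to 48.9% in the ventricle libraries and 16.2 to 40.3% in the artery libraries, where Sema3f (brown) and, except in artery 1, Sema3c (green) take more.

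A ratio of genes within a library does not depend on how the library was scaled. Sema3d over Sema3c, per kilobase, was 1.18 ± 0.397 in artery against 2.86 ± 0.492 in ventricle (SD, n = 6 each). It was lower in artery in 6 of 6 litters, and the highest artery value, 1.98 in artery 4, lay below the lowest ventricle value, 2.26. Nrp1 over Nrp2 was 2.39 ± 0.360 in artery and 1.63 ± 0.330 in ventricle and higher in artery in 6 of 6 litters. Its groups overlapped through ventricle 2 (2.27), above artery 1 (1.99), artery 3 (2.21) and artery 4 (2.07). The transcript length sets the size of a ratio but cancels between the groups. These ratios were chosen with the differences of their genes known, and no test was made of them.

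**Figure D4:**
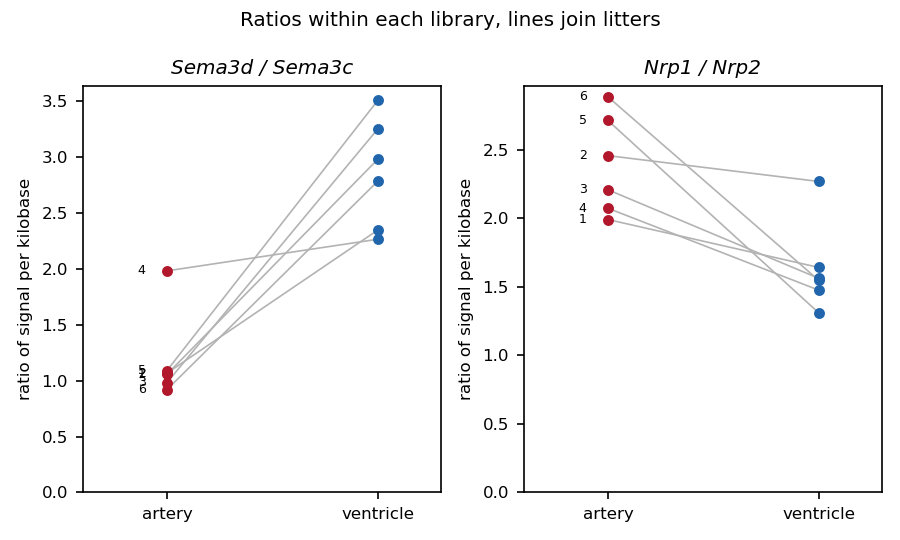
Ratio of signal per kilobase within each library (vertical axes, from 0) for Sema3d over Sema3c and for Nrp1 over Nrp2, in artery (red) and ventricle (blue), with lines joining litters and litter numbers at the left. Every line of the first panel rises toward ventricle and every line of the second falls.

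The genes with profiles most like each called member were found by root mean square distance between centred log2 profiles over the 12 libraries, among 11432 candidates. Likeness here includes the group difference and any library that stands apart. For Sema3d these were the glutamate receptor subunit Gria3 (0.113), the Golgi mannosidase Man1a (0.132) and Arhgap29 (0.133), against a median distance of 0.684 to all candidates. For Sema3e they were Clca1 (0.179), the amino acid transporter Slc7a8 (0.189) and again Gria3 (0.209). The profile of Sema3f was nearest to those of vasorin (Vasn, 0.0896), the metalloproteinase inhibitor Timp2 (0.0957) and the elastin cross-linking enzyme Loxl1 (0.108). Sema3g lay nearest to the inositol transporter Slc5a3 (0.176), the phosphatase Alpl (0.178) and the exchange factor Vav3 (0.201), and Nrp1 to ankyrin Ank2 (0.0971), the cytokine receptor Lifr (0.103) and the metalloproteinase Adam9 (0.110). For Plxnd1 they were the endothelial cadherin Cdh5 (0.0973), which is also one of the endothelial markers above, the laminin chain Lama4 (0.114) and the integrin chain Itga6 (0.140). The median distance to all candidates was 0.628 for Sema3e, 0.415 for Sema3f, 0.582 for Sema3g, 0.377 for Nrp1 and 0.465 for Plxnd1. Among the neighbours named, Loxl1 (adjusted p = 0.0892) and Cdh5 (adjusted p = 0.0712) did not themselves pass the test.

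The plexins of classes A, B and C are the other receptors of the family, and class A plexins are the usual partners of neuropilins. Of 8 tested, 1 was higher in artery, 3 were lower and 4 did not pass, with a median log2 difference of -0.33. The share called was 50%, beside 24.5% of all tested genes. Plxna2, known from cardiac neural crest cells of mouse, averaged 48.3 ± 10.7 in the artery layers against 31.1 ± 5.44 over the ventricles (SD, n = 6 each), a difference of 0.61 ± 0.15 (SE, adjusted p = 0.0165) with 6 of 6 litters higher. Plxna4, which relays Sema3a in sensory and sympathetic neurons, was at 172 ± 95.3 and 310 ± 44.3, a difference of -0.98 ± 0.22 (adjusted p = 0.0124). Plxnc1, the receptor of Sema7a, was at 12.9 ± 5.05 and 30.6 ± 5.28, lower by -1.23 ± 0.20 (adjusted p = 0.00240) with no overlap between groups. Plxnb1, a receptor of Sema4d, was at 97.0 ± 21.2 and 138 ± 10.1, a difference of -0.53 ± 0.14 (adjusted p = 0.0222). The call of Plxna2 was lost without litter 3 (0.48, adjusted p = 0.0513), and that of Plxnb1 without litter 2 (-0.54), 3 (-0.46), 5 (-0.52) or 6 (-0.42).

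Among the semaphorins of classes 4 to 7, most of which are membrane-bound, 12 of 13 were tested: 2 were higher in artery, 1 was lower and 9 did not pass, with a median difference of 0.09. The share called was 25%, near the 24.5% of all tested genes. Sema6c, a transmembrane ligand of class A plexins, averaged 67.4 ± 14.3 in the artery layers against 27.4 ± 3.62 over the ventricles (SD, n = 6 each), a difference of 1.25 ± 0.12 (SE, adjusted p = 0.000162). Sema5b was at 8.93 ± 2.73 and 3.66 ± 0.794, a difference of 1.06 ± 0.13 (adjusted p = 0.000681). Both had no overlap between groups and kept their calls in all 21 alternatives run. Sema6d, a ligand that takes part in chamber growth in the chick heart, was at 67.1 ± 19.1 and 97.0 ± 6.92, a difference of -0.56 ± 0.13 (adjusted p = 0.0147), which was lost without litter 3 (-0.54), 5 (-0.53) or 6 (-0.51) and in the 4 litters with equal lane numbers (-0.42, adjusted p = 0.0591). Both increases exceeded in size every difference among the class 3 ligands, although the difference between classes was not tested.

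**Figure D5:**
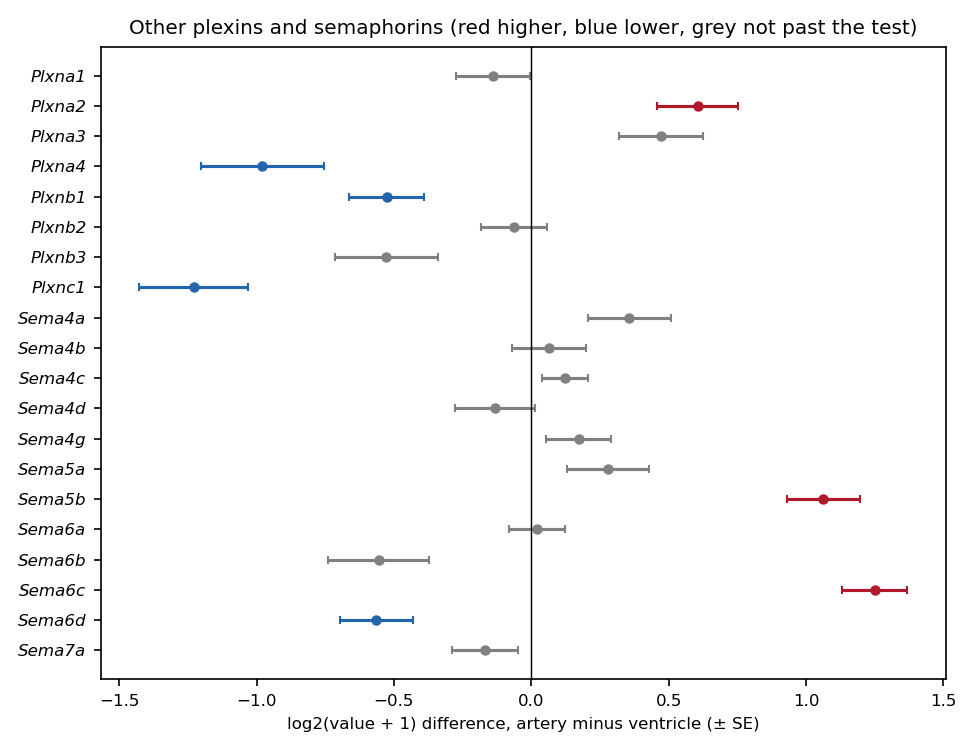
Log2(value + 1) difference, artery minus ventricle, with SE bars (horizontal axis), for the 8 plexins of classes A to C and the 12 tested semaphorins of classes 4 to 7 (red higher, blue lower, grey not past the test). Sema6c at 1.25 and Plxnc1 at -1.23 lie at the ends.

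Inside the cell, 21 genes that carry or modify the plexin signal were tested, of which 5 were higher in artery, 1 was lower and 15 did not pass (median difference -0.05). The share called, 28.6%, was close to the 24.5% of all tested genes. Mical1, the redox enzyme that dismantles actin filaments downstream of plexins, averaged 71.1 ± 11.02 in the artery layers against 33.2 ± 4.91 over the ventricles (SD, n = 6 each), a difference of 1.07 ± 0.11 (SE, adjusted p = 0.000230), with no overlap. Members of the collapsin response mediator family, which relay Sema3a to microtubules, went both ways. Dpysl4 was at 4.07 ± 1.42 and 1.68 ± 0.507, a difference of 0.90 ± 0.18 (adjusted p = 0.00662), and Dpysl5 at 36.95 ± 24.9 and 85.5 ± 19.1, a difference of -1.34 ± 0.23 (adjusted p = 0.00322). Dpysl3, with the highest values of the family, was at 340 ± 48.6 and 264 ± 40.7, a difference of 0.36 ± 0.10 (adjusted p = 0.0261). Dpysl2 and Crmp1 did not pass. The small GTPase Rras, a substrate of the plexin GTPase-activating domain, was at 88.5 ± 18.03 and 63.9 ± 5.18, a difference of 0.44 ± 0.12 (adjusted p = 0.0261) that was lost without litter 3 (0.42), 5 (0.48) or 6 (0.42) and in the 4 litters with equal lane numbers (0.28, adjusted p = 0.0597). Of the 6 autonomic neuron markers tested 2 were higher in artery. The summed value of all 8 on that list, tested or not, was 53.7 to 94.2 in artery, against 48.3 to 54.0. Gap43, the largest part of this sum (means 39.2 and 43.0), did not pass and had a difference of -0.14. Of 6 glial markers 1 was higher and 3 lower (summed value 17.98 to 35.96, against 42.4 to 53.0). The part of neurons and glia in these differences was not tested.

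Furin, the convertase that cleaves class 3 semaphorins, was the 1 of 5 convertases past the test (20%, beside 24.5% of all tested genes). It averaged 161 ± 33.3 in the artery layers against 124 ± 12.9 over the ventricles (SD, n = 6 each), a difference of 0.34 ± 0.11 (SE, adjusted p = 0.0474). This call was lost with no litter block (adjusted p = 0.0807) and without litter 1 (0.30), 2 (0.37), 3 (0.33), 4 (0.29) or 6 (0.33), in the 4 litters with equal lane numbers (0.28, adjusted p = 0.131), and without litters 1 and 4 (0.23, adjusted p = 0.127). Without artery 1 and artery 4, with no block, it was 0.20 (adjusted p = 0.211). Of the adhesion molecules that join neuropilin complexes, 3 were tested and 0 passed in limma, 0 at an unadjusted p under 0.05 and 0 in edgeR or DESeq2. L1cam, the co-receptor of Sema3a signalling, was at 4.92 ± 0.747 and 5.27 ± 1.16, and Nrcam at 3.86 ± 0.674 and 3.84 ± 0.663.

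Of 8 tested vascular endothelial growth factors and receptors that partner the neuropilins, 3 were lower in artery and 5 did not pass (median difference -0.25). The share called was 37.5%, beside 24.5% of all tested genes. Vegfc, the lymphatic growth factor that binds Nrp2, averaged 21.3 ± 5.34 in the artery layers against 38.1 ± 4.54 over the ventricles (SD, n = 6 each), a difference of -0.83 ± 0.14 (SE, adjusted p = 0.00352) with no overlap. Kdr, the receptor that Nrp1 assists, was at 133 ± 39.2 and 195 ± 27.2, a difference of -0.58 ± 0.16 (adjusted p = 0.0241), and was thus opposite in sign to Nrp1. Vegfb was at 49.4 ± 11.5 and 72.6 ± 19.8, a difference of -0.54 ± 0.16 (adjusted p = 0.0337). Vegfa (-0.23, adjusted p = 0.1425) did not pass. Figf went the other way, at 0.34 with 5 litters higher in artery, and did not pass either (adjusted p = 0.0861). In limma-voom, 1 gene of this list was called higher and 3 lower. The Kdr call was lost without litter 3 (-0.60), 5 (-0.52) or 6 (-0.61), and that of Vegfb without litter 2 (-0.43), 3 (-0.43), 5 (-0.54) or 6 (-0.57). Kdr is also among the endothelial markers and Flt4 among the lymphatic markers, so these lists are not separate.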

How the data were processed

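Per the labels' protocols, poly-A RNA was sequenced as single reads. Tools in the submitters' processing notes are CASAVA (1.8.2), cutadapt (1.3) and RSEM (1.2.3), with build GRCm38, and how values were normalized is not given in the sources used here. One table deposited by the authors holds a normalized signal for 17637 genes in 12 libraries. From the values, this signal is (whole reads + 0.5) times a constant of the library. By this form, 100% of 211644 values gave whole reads within 0.02 reads. The plan gave edgeR for raw counts and limma for a normalized signal, and limma was used. The test was limma 3.58.1 in R 4.3.3 on log2(value + 1) for the 14779 genes whose mean value reached 1, with a trended and robust prior, litter as a block, two-sided p-values and adjustment by Benjamini and Hochberg over all tested genes (threshold 0.05). On the recovered reads, edgeR 4.0.16 (3512 genes called) and DESeq2 1.42.0 (4108) were alternatives, as were limma-voom, other pseudocounts, filters and scalings, no block, and omissions of litters, libraries and lanes.

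The labels pair the libraries by litter, and the data were checked for it: deviations of a litter's 2 libraries from their group means had a mean correlation of 0.215 (-0.0137 to 0.396), against -0.0431 across litters, and the own litter was the best match for 3 of 6. P-values of the blocked fit measure the spread, over litters, of the artery minus ventricle difference within a litter. Those of fits with no block measure the spread between the pools of a group. Libraries of a group all differed by more than sampling noise (chi-square per degree of freedom at least 10.6). Lanes are the numbers in the library descriptions, and flow cells are not known from the labels. The code of the fit was also run on simulated reads with known changes. That simulation had no litter effect and the same spread setting for every gene, so it does not speak for the blocked fit on these data. Positions and lengths came from GENCODE M21 on GRCm38, start regions from RefSeq. Whether counting used strand is not stated, and no member had an exon overlap on the opposite strand.

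The members and lists were chosen with earlier results of these data known. All members were named, then per list the 3 smallest p past the threshold in either direction (or, with none past it, the 2 genes of highest mean), and the 3 nearest profiles of each called member (mean value of at least 5, no predicted genes). Outside this rule, Dpysl3, Dpysl2 and Crmp1 were added to show the rest of their family. Vegfa and Figf were added to show growth factors not past the test. Among 5 macrophage markers 1 was lower, and among 8 fibroblast markers 1 was higher and 1 lower in artery.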

Additional observations from a re-analysis of the deposited data

Results flagged for a closer look

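Of 20 sets of 6 values (10 genes in 2 groups), 2 held a library set far apart from the rest by Dixon's test, where chance gives about 1 in 20. Sema3c was at 86.9 in artery 1, while the other 5 artery libraries were at 196 to 239, a gap of 0.715 of the whole range. Sema3e was at 21.2 in artery 4, while the others were at 6.02 to 10.8, a gap of 0.683 of the range. Artery 1 also had the fewest reads (6.77 M). Artery 4 had the highest artery sum of mesothelial and epicardial markers (3491), and also of endothelial (1219), lymphatic (646), macrophage (359) and glial (35.96) markers. Its smooth muscle sum was the lowest of artery (2133), while its heart muscle, fibroblast and neuron sums were at neither end. The part of reads and marker sums in these values was not tested.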

How the results depend on the processing

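No member changed sign in any of the 21 alternatives. Of 210 values, 178 kept their side of the threshold, 26 lost the call and 6 gained it. These values include the 4 members not past the test in the main fit, which had no call to lose. Of 21 alternatives each, the call was lost in 8 for Plxnd1, 6 for Nrp1, 4 for Sema3e, 4 for Sema3f, 3 for Sema3d and 1 for Sema3g. The same 6 members passed with both other pseudocounts, both other filters, both other scalings, edgeR, DESeq2 and limma-voom. With no replicate block 5 members passed (Plxnd1 did not) and 3556 genes (3309 of them shared with the 3619 in the paired fit), and 5 with a prior neither trended nor robust (Plxnd1 at adjusted p = 0.050). Omission of 1 litter left 2 to 7 members, 2195 to 4475 genes and 8 to 21 of the 57 other pathway genes past the test (17 with all litters). Litters 5 and 6 gave the lowest count of members, litter 1 the highest. Without litters 1 and 4, chosen after seeing the data, 8 members and 27 pathway genes passed. In libraries with lane number 2 alone (3 artery and 4 ventricle libraries, no block) 1362 genes, 4 pathway genes and 0 members passed in limma, with 3 members, all higher, at an unadjusted p under 0.05, and 74.8% of the called genes were higher. The cause was not tested, and this subset also holds fewer libraries than the full fit. Low reads limit Sema3g and Sema3e, with as few as 54 and 41 reads in a library.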
